A study of Mus musculus with 11 samples.

Results

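The miR-183, miR-96 and miR-182 cluster is a group of 3 microRNA (miRNA) hairpins that lie close together on mouse chromosome 6 and are held to be cut from a common primary transcript. Its members were taken as every entry whose name has the stem miR-182, miR-183 or miR-96, whichever arm of the hairpin it comes from. This gave 6 of the 1096 mature miRNAs listed, namely miR-182-5p, miR-182-3p, miR-183-5p, miR-183-3p, miR-96-5p and miR-96-3p. The rule used names and no measured value, although earlier results of these data were known when it was set.

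The study asked what the RNA helicase MOV10 does in male germ cells of the mouse, and its 11 samples comprise 3 MOV10 CLIP, 6 mRNA and 2 small RNA libraries, of which the last are used here. Both small RNA libraries came from spermatogonial progenitor cells (SPCs), germ cells of the neonatal testis that carry the surface protein Thy1 and can be kept in long-term culture on STO feeder cells, a mouse embryonic fibroblast line whose division has been stopped. Control SPCs carried the lentiviral shRNA vector without a Mov10 target (shVector, labelled with the genotype Mov10 Vector). Knockdown SPCs carried an shRNA against Mov10 (labelled Mov10 knockdown, and numbered 832 in the labels of the mRNA libraries). The labels give both groups the strain C57BL/6 and postnatal day 6, whereas the methods describe cultures from pups of 6 to 8 days on a mixed background with the Rosa26 transgene. A single shRNA is named for the sequenced samples, so an effect of MOV10 loss and another effect of that shRNA cannot be told apart here.

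There was 1 library per group, so no value has a replicate error, and every test below compares the 2 libraries and not the 2 conditions. The control library held 9628835 reads on miRNAs and the knockdown library 2794593. TPM is here the number of reads per 1000000 of a library's own total, which came to 10518277 reads (control) and 3194363 reads (knockdown), and it carries no correction for length. The value of 1 read was 0.0951 TPM for the control library and 0.313 TPM for the knockdown library. The floor of detection was set at 3 reads, which correspond to 0.285 and 0.939 TPM. Intervals are 95% intervals of read counts and cover counting error only. Reads copied by PCR were not marked by molecular identifiers, so even this error may be understated. Mov10 mRNA is not seen in small RNA libraries, so its depletion was not checked here.

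In miRNA biogenesis, the nuclear enzyme Drosha cuts hairpins out of a primary transcript, Dicer removes the loop, and an Argonaute protein keeps mainly a single arm of the resulting duplex, called 5p or 3p after its side of the hairpin. Bases 2 to 8 of the mature miRNA, the seed, pair with target mRNAs and largely decide which mRNAs are repressed. The miR-183, miR-96 and miR-182 cluster is best known from sensory organs, where its members are abundant in hair cells and photoreceptors, and mutations in the seed of miR-96 cause hearing loss. The hairpins are transcribed together but mature levels of the members often differ.

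The mature sequences are shown first because the 3 abundant members are close relatives. Each is written 5′ to 3′ from RefSeq (GRCm38.p6), with the seed in capitals.
miR-182-5p: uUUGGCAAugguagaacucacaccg
miR-96-5p: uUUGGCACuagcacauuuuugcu
miR-183-5p: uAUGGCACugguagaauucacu
miR-182-3p: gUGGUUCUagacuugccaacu
miR-96-3p: cAAUCAUGuguagugccaauau
miR-183-3p: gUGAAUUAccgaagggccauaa

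All 3 of the 5p arms began with U, as did 85 of the 178 miRNAs (47.8%) that had a sequence and more than 100 TPM in the control. Counting positions from 1 at the 5′ end and comparing without gaps, miR-182-5p and miR-183-5p had the same base at 18 of 22 positions (81.8%), the differences being U2A, A8C, C17U and A22U, with the miR-182-5p base given first. Their longest shared stretch ran over positions 9 to 16, just behind the seed. The seeds of miR-182-5p and miR-96-5p differed only by A8C, so that both share bases 1 to 7, but over 23 positions only 12 (52.2%) were equal. Between miR-183-5p and miR-96-5p the seed differed only by A2U, and 13 of 22 positions (59.1%) were equal. Reads were mapped by the authors without mismatch, and the 3 sequences differ from each other at 4 or more positions of the stretch compared.

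The 5p members therefore fall into a pair that shares bases 2 to 7 (miR-182-5p and miR-96-5p) and miR-183-5p with a seed of its own. Of the 908 listed miRNAs with a RefSeq sequence, none outside the cluster had the seed of a member, nor the same bases 2 to 7. The other 188 miRNAs had no sequence in the table used and were not searched. Together, miR-182-5p and miR-96-5p accounted for 1497320 control reads (15.6% of all miRNA reads) and 330885 knockdown reads (11.8%). Nearly all of these belonged to miR-182-5p.

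The hairpins lie on the minus strand of chromosome 6 in the order Mir183, Mir96, Mir182 along the direction of transcription. They are printed here, with both mature arms in capitals, since the arms are compared below.
Mir183, chr6:30169668-30169737: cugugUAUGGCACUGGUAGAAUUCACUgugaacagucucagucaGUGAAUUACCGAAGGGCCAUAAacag
Mir96, chr6:30169446-30169551: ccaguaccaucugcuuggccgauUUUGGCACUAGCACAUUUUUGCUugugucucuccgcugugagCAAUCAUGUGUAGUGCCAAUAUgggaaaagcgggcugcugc
Mir182, chr6:30165918-30165992: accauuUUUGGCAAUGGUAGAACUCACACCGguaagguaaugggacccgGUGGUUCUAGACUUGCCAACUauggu

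Mir183 and Mir96 are separated by 116 bases and Mir96 and Mir182 by 3453 bases, and the 3 hairpins span 3820 bases. RefSeq places all 3 in intron 1 of the long transcript of the noncoding host gene Mirc35hg (chr6:30158640-30174125, 15486 bases, 2 exons). The second annotated transcript of that gene ends before Mir183. No exon overlaps a hairpin in either transcript. The nearest protein-coding genes are Nrf1, 12459 bases from Mir182, and Ube2h, 41551 bases from Mir183.

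**Figure D1:**
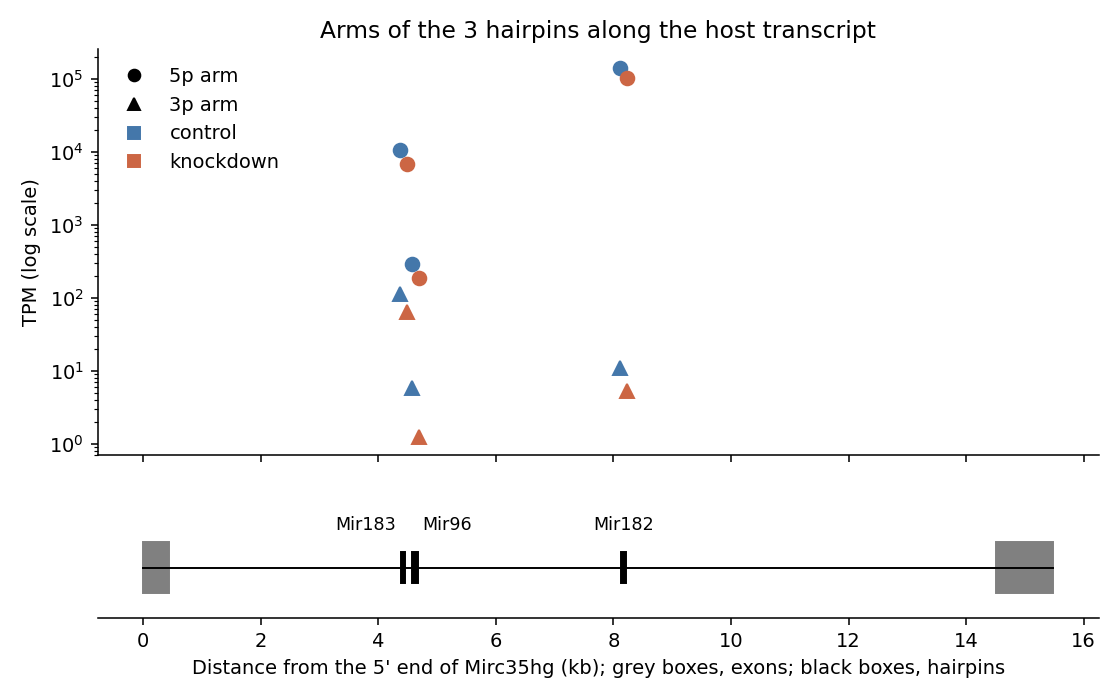
Upper panel, TPM on a log scale of the 5p (circles) and 3p (triangles) arm of each hairpin in the control (blue) and knockdown (orange) library, with symbols of the 2 libraries moved slightly apart; lower panel, hairpins and exons of Mirc35hg by distance in kb from its 5′ end. Mir183 and Mir96 lie next to each other, but miR-183-5p stood at 10604 and miR-96-5p at 289 TPM in the control, and the more distant miR-182-5p at 142065 TPM.

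In control SPCs the cluster was dominated by a single product. miR-182-5p was the most abundant of all 1096 miRNAs, with 1494281 reads or 142065 TPM (interval 141837 to 142293), which is 15.5% of all miRNA reads (Wilson interval 15.50 to 15.54%). The second most abundant miRNA, miR-470-5p, took 6.32%. In Mov10 knockdown SPCs miR-182-5p had 330280 reads or 103395 TPM (103042 to 103748), which is 11.8% of miRNA reads (11.78 to 11.86%). It there ranked second, behind miR-21a-5p with 12.2%.

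The other 2 of the 5p arms were far less abundant. miR-183-5p had 111537 reads and 10604 TPM in the control (rank 23) and 22006 reads and 6889 TPM in the knockdown (rank 29). Its share of miRNA reads was 1.16% and 0.787%, respectively. For miR-96-5p, 3039 reads and 289 TPM were counted in the control (rank 127), and 605 reads and 189 TPM in the knockdown (rank 150). The control level of miR-182-5p was thus 13.4 times that of miR-183-5p and 492 times that of miR-96-5p, although the hairpins are parts of a common transcript model. Ligation and PCR favour some small RNA sequences over others, so a comparison between miRNAs within a library is one of read numbers.

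The 3p arms, the strands that are mostly discarded, stood lowest. miR-183-3p had 1200 reads (114 TPM) in the control and 207 reads (64.8 TPM) in the knockdown. With 114 and 17 reads, miR-182-3p reached 10.8 and 5.32 TPM. miR-96-3p was the rarest member, with 62 reads (5.89 TPM) in the control and 4 reads (1.25 TPM, interval 0.341 to 3.21) in the knockdown, just above the floor of 3 reads. All 6 members passed the minimum of 1.5 TPM in the higher library. The order of the 6 members by level was the same in both libraries. In the control no neighbours in this order had overlapping intervals, and in the knockdown the intervals of miR-182-3p (3.10 to 8.52 TPM) and miR-96-3p overlapped.

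**Figure D2:**
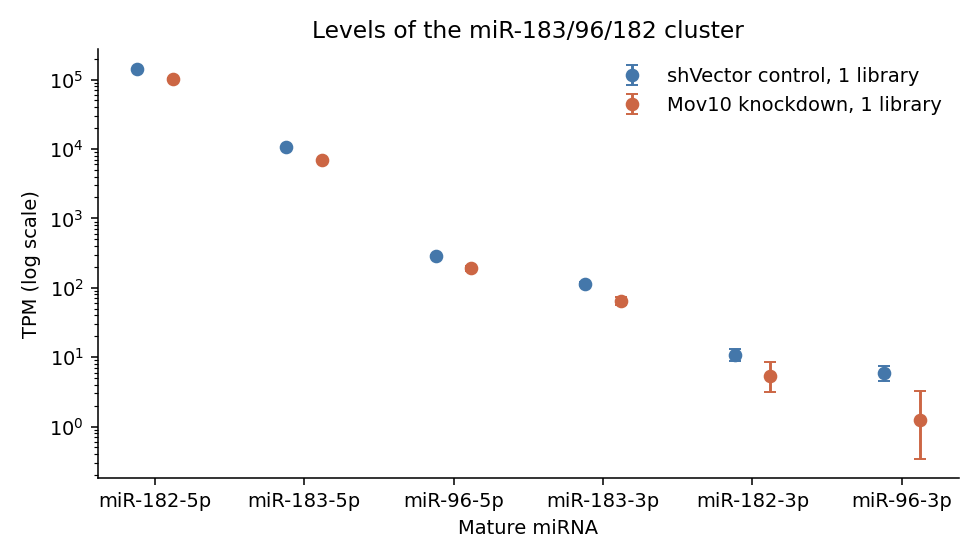
TPM of each member on a log scale in the shVector control (blue) and Mov10 knockdown (orange) library, 1 library each; bars are exact 95% counting intervals, hidden behind the point for the abundant members. Each of the 6 members was lower in the knockdown library, from 142065 and 103395 TPM for miR-182-5p to 5.89 and 1.25 TPM for miR-96-3p.

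**Figure D3:**
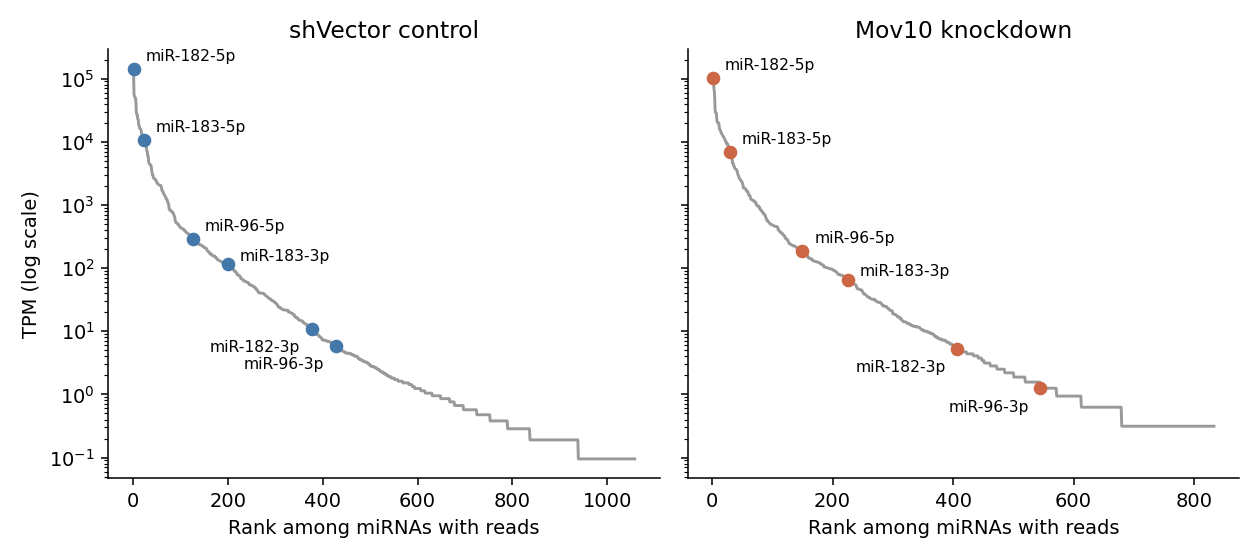
TPM on a log scale against rank for every miRNA with reads (grey line) in the control (left) and the knockdown (right) library, with the 6 members marked. miR-182-5p stood at rank 1 and 2, miR-183-5p at 23 and 29, and miR-96-3p at 427 and 545.

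The share of the lesser arm describes how strictly a hairpin yields only a single strand. For miR-182 the 3p arm made up 0.00763% of the reads of both arms in the control (exact binomial interval 0.00629 to 0.00916%), or 1 read for 13108 reads of the 5p arm. Of 204 hairpins with both arms listed and at least 100 reads in the control, only 2 had a smaller share. miR-183 gave 1.06% (1.01 to 1.13%) and miR-96 gave 2.00% (1.54 to 2.56%), with 69 and 84 hairpins below them. The median over the 204 hairpins was 3.24%, so that all 3 hairpins of the cluster lay on the strict side of it, and 113 of the 204 favoured the 5p arm as they did.

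In the knockdown the 3p share was 0.00515% (0.00300 to 0.00824%) for miR-182, 0.932% (0.810 to 1.07%) for miR-183 and 0.657% (0.179 to 1.67%) for miR-96. The last corresponds to 151 reads of miR-96-5p for each read of miR-96-3p, against 49.0 in the control, but rests on 4 reads of the 3p arm. None of the 3 differences passed Fisher's exact test after Benjamini-Hochberg adjustment over 203 hairpins (adjusted p = 0.324 for miR-182, 0.198 for miR-183 and 0.0618 for miR-96). Over the same hairpins, 30 (14.8%) had a lower share of the lesser arm in the knockdown and 26 a higher one at an adjusted p under 0.05. For miR-96 the same test also appears below among the pairs of members, where it is adjusted over 15 pairs only and gives an adjusted p of 0.0481 (exact test), so that its call depends on the family of tests.

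The comparison of knockdown with control addressed whether mature miRNA levels depend on MOV10. All 6 members were lower in the knockdown library, and the summed level of the cluster was 153089 TPM in the control and 110544 TPM in the knockdown. This is a log2 ratio of −0.47 (−0.475 to −0.464). The cluster held 16.7% of all miRNA reads in the control (16.70 to 16.75%) and 12.6% in the knockdown (12.60 to 12.67%). Of the summed TPM lost by the 744 miRNAs that were lower in the knockdown, the cluster made up 21.1% and miR-182-5p alone 19.1%. No listed miRNA lost more TPM than miR-182-5p, which fell by 38671 TPM, and the next, miR-470-5p, fell by 26167 TPM. The other 1090 miRNAs together stood at 762349 TPM in the control and 764307 TPM in the knockdown (log2 ratio 0.0037), so that the sum over all miRNAs dropped by 40587 TPM while the cluster dropped by 42545 TPM.

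By member, the log2 fold change of TPM + 0.1 was −0.46 for miR-182-5p (interval −0.464 to −0.453), −0.62 for miR-183-5p (−0.643 to −0.601) and −0.61 for miR-96-5p (−0.738 to −0.483). Those of the 3p arms were larger and less certain, at −0.82 for miR-183-3p (−1.04 to −0.602), −1.01 for miR-182-3p (−1.86 to −0.284) and −2.15 for miR-96-3p (−4.16 to −0.806). The intervals are those of the plain TPM ratio without the 0.1, which for miR-96-3p was −2.23. In an exact conditional binomial test of the reads, adjusted over all 1096 miRNAs, each of the 6 passed at 0.05. The adjusted p was 0.0133 for miR-182-3p, 0.00146 for miR-96-3p, 9.08e-15 for miR-183-3p and 3.00e-22 for miR-96-5p, and for the 2 most abundant members it was too small for the program to represent. Of all miRNAs 21.4% passed this test with a lower value in the knockdown. The test gains power with read number, and 4 of the 6 members had more than 1000 control reads.

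The study's thresholds of 1.5-fold and 1.5 TPM were applied with the minimum set on the higher library, a choice made here that its text does not state. By this rule, 5 of the 6 members were reduced and none was raised. The member that missed the rule was the most abundant, miR-182-5p, reduced 1.37-fold. miR-183-5p (1.54-fold) and miR-96-5p (1.53-fold) lay just past it. The intervals of miR-96-5p and of miR-182-3p (2.04-fold) reached to both sides of 1.5-fold. Among all 607 miRNAs above the minimum, 253 (41.7%) were reduced and 97 raised, and the median log2 fold change was −0.37, against −0.72 over the 6 members and −0.61 over the 5p arms. The study itself reported more reduced and fewer raised miRNAs at these thresholds, so its counts were not reproduced here. Among the 24 miRNAs above 10000 TPM in the control, which include miR-182-5p and miR-183-5p, 7 were reduced, 2 were raised and the median was −0.44. Among the 252 miRNAs of 1.5 to 20 TPM, the range of miR-182-3p and miR-96-3p, 122 were reduced, 35 were raised and the median was −0.53.

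**Figure D4:**
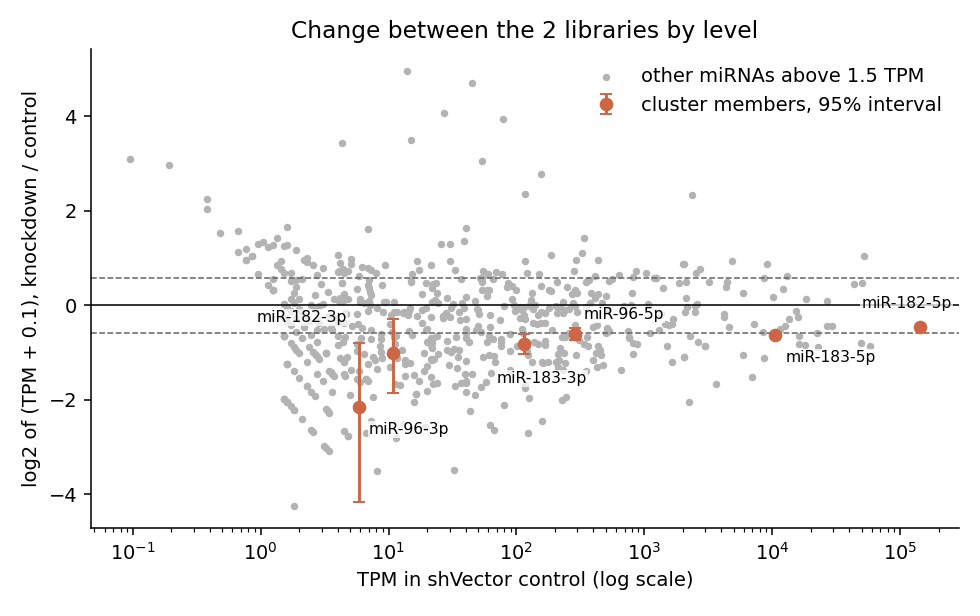
log2 of the ratio of TPM + 0.1, knockdown over control, against control TPM on a log scale for the 607 miRNAs above the minimum. Members are orange with 95% counting intervals of the plain TPM ratio, and dashed lines mark 1.5-fold. All 6 members lie below 0, from −0.46 for miR-182-5p to −2.15 for miR-96-3p, within the cloud of the other miRNAs.

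These counts depend on how the libraries were scaled. With a median-ratio factor, which moved every log2 value up by 0.25, the cluster sum was at −0.22, 2 members were reduced, and 193 miRNAs were reduced and 147 raised. With edgeR's TMM factors (a move of 0.22) the sum was at −0.25, 3 members were reduced, and 203 miRNAs were reduced and 142 raised. With a common total for both libraries, which amounts to comparing raw reads, all 6 members were reduced, as were 561 miRNAs, and 10 were raised. Only this scaling gave more reduced and fewer raised miRNAs than deposited TPM, the direction in which the study's counts differ. Whether the study's counts came from such a scaling was not tested. Each member stayed below 0 under all of these scalings. None could have changed this, as the largest upward move, 0.25, was smaller than the fall of miR-182-5p (−0.46). A loss shared by all RNAs of a library does not show in TPM.

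The ratio of a pair of members within a library does not depend on scaling. Of 15 pairs, 6 differed between the libraries in Fisher's exact test with adjustment over the 15. Relative to miR-182-5p, miR-183-5p was lower in the knockdown by 0.16 log2 units (−0.185 to −0.142, adjusted p = 4.30e-50), which means that miR-182-5p had 13.4 times its reads in the control and 15.01 times in the knockdown. miR-96-5p was also lower relative to miR-182-5p (−0.15, −0.277 to −0.025, adjusted p = 0.0481), as were miR-183-3p (−0.36, adjusted p = 0.00581) and miR-96-3p (−1.78, −3.24 to −0.318, adjusted p = 0.0474), all by the exact test. The remaining 2 pairs set miR-96-3p against miR-183-5p (−1.61) and against miR-96-5p (−1.63), each with an adjusted p of 0.0481 by the exact test. The latter is the comparison of the miR-96 arms that missed the threshold over 203 hairpins (adjusted p = 0.0618, exact test). The 3 adjusted p-values of 0.0481 and the one of 0.0474 are near the threshold, and those of miR-96-3p rest on its 4 knockdown reads.

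miR-183-5p and miR-96-5p, whose hairpins are neighbours, kept nearly the same ratio. miR-183-5p had 36.7 times the reads of miR-96-5p in the control and 36.4 times in the knockdown, a log2 change of 0.013 with an interval of −0.115 to 0.141 (adjusted p = 0.839, Fisher's exact test). For miR-182-3p relative to miR-182-5p the change was −0.57 (−1.30 to 0.167, adjusted p = 0.211), an interval too wide to separate these arms. Within the cluster, miR-182-5p made up 92.8% of control reads and 93.5% of knockdown reads, miR-183-5p 6.93 and 6.23%, and miR-96-5p 0.189 and 0.171%. Without miR-182-5p, the summed log2 ratio of the other 5 members was −0.62 (−0.645 to −0.604).

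The miRNAs next to each member in control rank are given beside it. miR-470-5p, next below miR-182-5p but at only 57858 TPM in the control, changed by −0.87. For miR-183-5p the neighbours were miR-16-5p above (−0.49) and miR-99b-5p below (0.19), and for miR-96-5p they were miR-484 (−0.56) and let-7d-5p (0.33). miR-183-3p lay between miR-671-3p (−0.03) and miR-145a-5p (−0.20). The neighbours of miR-182-3p changed by −0.66 (miR-425-3p) and −0.56 (miR-1964-3p), and those of miR-96-3p by 0.61 (miR-3066-5p, 62 and 29 reads) and −0.40 (miR-20b-5p, 61 and 14 reads). Of the 5 neighbours of the 3 abundant 5p arms, miR-470-5p was the only one with a lower value than its member.

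The cluster was next set against other miRNA clusters. When hairpins within 10 kb on the same strand were joined, 60 groups had reads, and the miR-183, miR-96 and miR-182 cluster was second in read number in both libraries. The first was a group of 19 hairpins on chromosome X that holds miR-470 and miR-871, with 20.6% of the control and 12.7% of the knockdown miRNA reads (log2 ratio −0.77). Of 13 groups with at least 1% of control reads, 9 were below 0 and 4 were lower than the cluster, and the median was −0.40. A mature miRNA encoded in more than 1 group was counted in each. Among the 15 groups with at least 3 mature miRNAs above 100 TPM, none had a smaller range of log2 fold changes than the 0.357 between the 4 such members of the cluster, and the median range was 0.93. The group of Mir181a-1 and Mir181b-1 had nearly the same range (0.364). Groups differed in their number of entries, which was not matched. The minimum of 100 TPM left out miR-182-3p (−1.01) and miR-96-3p (−2.15), the members that changed most.

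Clusters known from stem cells and proliferating cells served as a fixed list, and their counts stand beside the 41.7% of all miRNAs above the minimum that were reduced. The miR-17-92 cluster, which promotes proliferation, stood at 28810 TPM in the control and 21812 TPM in the knockdown (log2 ratio −0.40), with 5 of its 12 entries above the minimum reduced and 1 raised, miR-19b-1-5p with 2 control and 7 knockdown reads. Its most abundant entry, miR-92a-3p, changed by −0.44, and this miRNA is also encoded on chromosome X. The related miR-106b-25 cluster stood at 20928 and 17790 TPM (−0.23), with 2 of 6 entries reduced and none raised. In the miR-290 cluster, which runs to miR-295 and is typical of pluripotent and early germ cells, 10 of 16 entries were reduced and none raised, and the sum was 2153 and 1330 TPM. The miR-200 family, typical of epithelia, was rare at 21.4 and 13.8 TPM, with 2 of 3 entries above the minimum reduced.

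Relative to these clusters the reads of the miR-183, miR-96 and miR-182 cluster changed in different directions. They were 5.31 times the miR-17-92 reads in the control and 5.07 times in the knockdown (log2 change −0.07, −0.081 to −0.055), and 7.32 and 6.21 times the miR-106b-25 reads (−0.24). Against the miR-290 cluster the ratio went from 71.1 to 83.1 (0.23, 0.178 to 0.273), and against the chromosome X group from 0.810 to 0.995 (0.30). The change against the miR-200 family was 0.17 with an interval from −0.301 to 0.631. Against miR-21a-5p, the most abundant miRNA of the knockdown, the ratio went from 2.95 to 1.03 cluster reads per miR-21a-5p read (−1.51). Against miR-22-3p and miR-10b-5p, both also higher in TPM in the knockdown, the change was −0.95 and −0.92. All of these miRNAs had fewer reads in the knockdown, the smaller library (for miR-21a-5p, 546601 in the control and 341977 in the knockdown). As a share of miRNA reads, miR-21a-5p went from 5.68% in the control to 12.2% in the knockdown. The share of miR-22-3p went from 5.53 to 8.06%. By RT-qPCR with U6 as the reference, the study reported less mature miR21a, miR20a and miR106a in knockdown SPCs. For miR21a this is the opposite direction to its TPM. The direction of the cluster's change thus depended on the miRNA it was measured against.

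**Figure D5:**
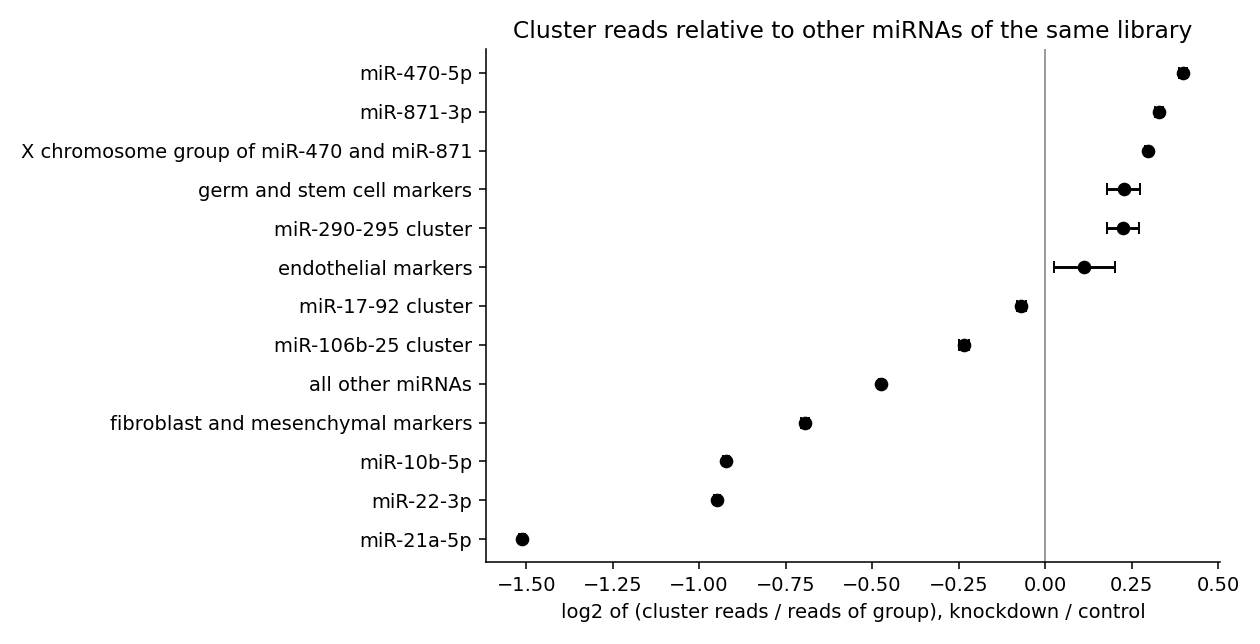
log2 change, knockdown over control, of the cluster's reads divided by the reads of another miRNA or group in the same library; bars are 95% counting intervals, and the muscle, blood cell and miR-200 lists are left out for their few reads. The values drawn run from −1.51 against miR-21a-5p to 0.40 against miR-470-5p, on both sides of 0.

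In a bulk library, fewer cells of a type and less RNA per cell cannot be told apart, and markers of the cell types present moved between the libraries. The labelled cell type could be checked only through miRNAs. The germ and stem cell list held only entries of the miR-290 and miR-302 clusters, so other miRNAs of germ cells were not covered by it. The direction of this list need not hold for them. Of its 14 entries, 8 of the 12 above the minimum were reduced (41.7% over all miRNAs) and none was raised, and the sum was 2107 TPM in the control and 1299 TPM in the knockdown (0 entries at 0 in the control, 2 in the knockdown, miR-302b-3p and miR-302d-3p, which had 1 and 2 control reads). miRNAs outside the list that the study names for SPC fate moved both ways. In log2 fold change of TPM, miR-21a-5p was at 1.04, miR-20a-5p at −0.41 and miR-106a-5p at −1.84 (38 control and 3 knockdown reads). By RT-qPCR the study reported each of them reduced. Of the 7 fibroblast and mesenchymal entries, expected from STO feeder cells, none was past 1.5-fold, and the sum was 27617 and 32232 TPM (log2 ratio 0.22), led by miR-143-3p with 18362 and 20113 TPM. No entry of that list was at 0. The list sums are in deposited TPM. With TMM or median-ratio factors every log2 value moved up by 0.22 or 0.25, about as much as the 0.22 of this list. Cluster reads were 5.54 times the fibroblast list in the control and 3.43 times in the knockdown (log2 change −0.69, −0.704 to −0.681), and 72.7 and 85.1 times the germ and stem cell list (0.23), most of which is also the miR-290 cluster.

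Other cell types were rarer. The blood cell list stood at 176 and 34.7 TPM in control and knockdown, led by miR-142a-5p with 1663 control and 92 knockdown reads, and 2 of its 3 entries above the minimum were reduced. Cluster reads were 871 times the blood cell list in the control library and 3181 times in the knockdown library (log2 change 1.87, 1.59 to 2.14). The endothelial list, miR-126a-3p and miR-126a-5p, stood at 592 and 395 TPM with 1 of 2 entries reduced. The 2 muscle entries had 33 and 12 reads in all, with 1 reduced and 1 raised. The part of these cell types in the change of the cluster was not tested.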

How the data were processed

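Small RNAs were sequenced as 1 library from control (shVector) and 1 from Mov10 knockdown SPCs. The methods mention triplicate samples and do not state whether they were pooled. The authors removed rRNA reads and adaptors and mapped reads to miRBase without mismatch in CLC Genomics Workbench. They deposited read counts and TPM per mature miRNA. Dividing counts by TPM gave 1 library total per sample, 91.5% (control) and 87.5% (knockdown) of it on miRNAs. What the rest contains and how reads shared by hairpins were assigned is not given in the sources used here.

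For each miRNA, a conditional binomial test, exact and two-sided, compared the reads of both libraries (Python 3.11.15, scipy 1.17.1) with Benjamini-Hochberg adjustment over all 1096 miRNAs. Fold changes used a pseudocount of 0.1 TPM, and their intervals and the calls used the plain TPM ratio. Intervals of ratios and of single levels are exact, shares have Wilson intervals unless named exact binomial, and ratios of 2 read sums have Woolf intervals. Pairs of members and arms were compared by two-sided Fisher's exact tests. TMM factors came from edgeR 4.0.16. The scripts were tested on simulated data. Named miRNAs were the members, any miRNA sharing a seed, the neighbours of each member by control reads, up to 3 examples per list by control reads, miRNAs the study names for SPC fate, and the leading miRNAs by level or TPM change, the last chosen after their values were seen. The members and lists were chosen with earlier results of these data known. Alternatives were 5 scalings, a pseudocount of 1, other minimums and thresholds, another reference member and other denominators. The mRNA and CLIP libraries were not used here.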

Additional observations from a re-analysis of the deposited data

How the results depend on the processing

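All 36 values of single members under other scalings or a pseudocount of 1 TPM stayed below 0. A scaling moves all members by nearly the same amount, at most 0.25 upward, so these are not 36 separate checks. The adjusted p of miR-182-3p in the exact binomial test missed 0.05 with TMM factors (log2 −0.80, adjusted p = 0.0890) and with the median ratio (−0.76, adjusted p = 0.111). The cluster sum was at −0.40 when divided by miRNA reads, −0.25 with TMM, −0.22 with the median ratio, −2.19 with a common total and −0.62 without miR-182-5p. The number of members reduced over 1.5-fold was 3 when divided by miRNA reads, 3 with TMM and 2 with the median ratio, and 2 members were reduced over 2-fold. Over all miRNAs, reduced and raised entries numbered 561 and 10 with a common total, 163 and 43 at 2-fold, 157 and 53 with a minimum of 10 TPM, and 579 and 208 with no minimum, and 147 were raised with the median ratio. With miR-183-5p in place of miR-182-5p as the reference, miR-96-5p turned to 0.013 (adjusted p = 0.839) and miR-183-3p to −0.19 (adjusted p = 0.144) in Fisher's exact test, since the reference itself differed. The cluster's share of the library totals behind TPM was 15.3% (control) and 11.1% (knockdown), and it was 28.7 and 23.0% of miRNA reads without the 10 other miRNAs with most control reads. No paired analysis was possible because there was 1 library on each side, and for the same reason no library could be left out. Depth limits the 3p arms most, with 17 reads of miR-182-3p and 4 of miR-96-3p in the knockdown.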
